A study of Mus musculus with 6 samples.

Results

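The 36 genes described here are expressed in microglia, the resident macrophages of the brain, and were chosen by name as homeostatic and activation genes, with complement genes left out. They were looked up among the 54658 genes of the count tables from bulk nucleus accumbens, the ventral part of the striatum, and all 36 were listed. The study profiled 3 libraries per group, lettered A, B and C, from adult male C57BL6 mice, 8 weeks old at purchase. The Gas5 group received a microinjection of herpes simplex viral vector p1005+ that delivered Gas5, a long noncoding RNA, with EGFP, and the GFP group received EGFP alone in the same kind of vector. Injection, vector and EGFP are therefore common to both groups, and a group that was not injected was not analysed here. The labels name no promoter or target cell of the vector and leave unsaid if each sample came from a single mouse or from pooled mice.

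Microglia depend on signalling through the receptor CSF1R and on the transcription factors PU.1 (encoded by Spi1), SALL1 and IRF8. In undisturbed brain they express receptors that survey their surroundings, such as the fractalkine receptor CX3CR1, the purinergic receptors P2RY12 and P2RY13 and the membrane protein TMEM119. Injury, dying cells or lipid debris engage TREM2 and its adaptor TYROBP, and microglia then raise genes for phagocytosis and lysosomal digestion such as Itgax, Cst7, Clec7a, Gpnmb, Lpl and Lgals3 while homeostatic genes can fall. Several of the activation genes are also made by blood-derived macrophages, and Lpl, Cd9, Spp1 and the cathepsin genes by other brain cells as well. The members were read in 4 sublists: 11 homeostatic, 11 pan-myeloid, 6 lysosomal and 8 activation genes.

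Total counts ranged from 32359052 to 56081575 per library. Gas5, the delivered gene, stood at 22.6, 23.3 and 23.6 CPM, read counts scaled to the size of the library with TMM factors, in the Gas5 libraries and at 18.6, 16.5 and 18.3 CPM in the GFP libraries. Its log2 fold change, Gas5 minus GFP, was 0.38 (SE 0.0633, edgeR adjusted p = 0.0163), and by exact permutation the 2-sided p was 0.1, which is the lowest value 3 against 3 libraries can reach. The edgeR call was lost without GFP B (adjusted p = 0.0727) and without GFP C (0.0677). Markers of cortical projection neurons, cells that are not of the accumbens, differed between the groups. Their summed level was 192 to 249 CPM in the Gas5 libraries and 415 to 555 CPM in the GFP libraries, 8 of 11 tested markers were lower (4 when either GFP B or GFP C was left out), and their part in the results below was not tested. Of 13 tested markers of medium spiny neurons, the principal cells of the accumbens, 0 passed the edgeR test, with 2 at an unadjusted p under 0.05, and DESeq2 called 1 and limma-voom 0.

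Of the 36 members, 31 had counts and all 31 passed the filter on low counts. The other 5 members, P2ry12, P2ry13, Gpr34, Itgam and Irf8, had 0 counts in all 6 libraries, and this does not show that they were not expressed. The tables count reads over the whole span of a gene, introns included, and show no counts where listed genes overlap entirely: 0 of 1238 protein-coding genes longer than 500 bases that lay wholly within overlaps had a count, against 9218 of 11380 that overlapped no gene. P2ry12 (chromosome 3, 59216272 to 59262871, minus strand, GRCm38) and P2ry13 (chromosome 3, 59207892 to 59210882, minus strand) lie wholly within Med12l on the opposite strand. Gpr34 (chromosome X, 13632089 to 13640858, plus strand) lies wholly within Cask on the opposite strand, and Irf8 (chromosome 8, 120736358 to 120756694, plus strand) within Gm20388. Itgam (chromosome 7, 128062640 to 128118491, plus strand) shares 99.9% of its span with Gm49368. These 5 genes, among them 3 receptors that define the homeostatic state, were thus not measurable here. Among the measured members, Cd52 shared 79.6% of its span with other genes, Cx3cr1 57.4% and Ctsd 55.7%, and each was measured on the remainder.

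Every one of the 31 tested members was higher on average in the Gas5 libraries, and 6 of them rose by the edgeR quasi-likelihood test at an adjusted p under 0.05: Ptprc, Laptm5, Ctsd, Grn, Itgax and Lgals3. No member fell, beside 3.96% of all tested genes called lower. The 6 are 19.4% of the tested members, beside 1.48% of all 17563 tested genes called higher and 5.44% called in either direction. The median log2 fold change was 0.37 over the members and 0.016 over all tested genes, and a positive value was found in 54.2% of all tested genes. A further 9 members had an adjusted p between 0.05 and 0.10, and 24 of 31 had an unadjusted p under 0.05, all 24 of them higher. Over all tested genes this share was 10.2% higher and 21.4% in either direction. In 25 members the lowest Gas5 library lay above the highest GFP library, as in 13.8% of all tested genes, or 27.7% when both directions are counted. The members are measured in the same 6 libraries and are not independent of each other. They were also chosen with earlier results of these data known. Their shares beside those of all genes are therefore descriptions without a test. In bulk tissue, more microglia and more RNA per microglial cell cannot be told apart.

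**Figure D1:**
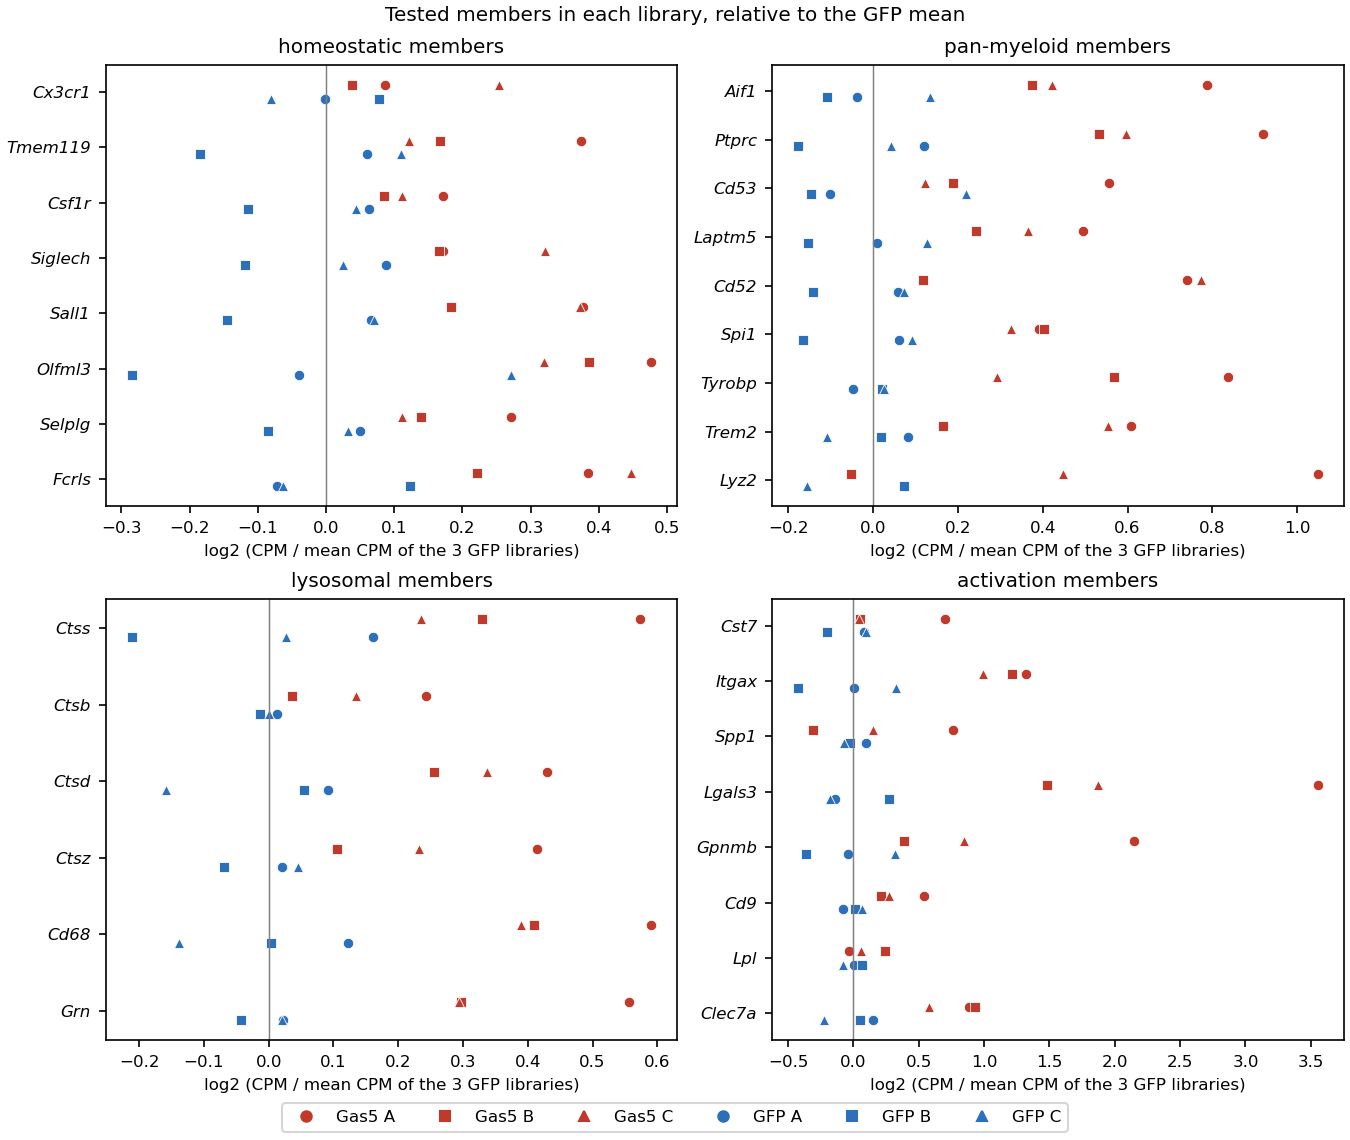
Level of each tested member in each library, as log2 of its CPM over the mean CPM of the 3 GFP libraries (x axis; the range differs between panels), with red symbols for Gas5 and blue for GFP libraries and a shape for each letter. Gas5 libraries lie to the right for most members, 25 of 31 members show no overlap, and Gas5 A stands far to the right for Lgals3 and Gpnmb.

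The calls depended on single libraries. Without GFP B edgeR called 0 members, with 18 at an unadjusted p under 0.05, and without GFP C 0, with 23. In each of these fits 6 genes or fewer were called higher in the whole table. Without GFP A it called 3 members (Ptprc, Ctsd and Itgax), without Gas5 A 4 (Ptprc, Grn, Itgax and Lgals3), without Gas5 C 5 and without Gas5 B 12. With all libraries, DESeq2 called 14 and limma-voom 5. The direction changed less than the calls: 31 of 31 members were positive in every one of these fits except that without Gas5 A. There 30 were positive and Spp1 was at -0.081. All these fits reuse the same 6 libraries. For the 25 members whose groups did not overlap, leaving out a library could hardly change the sign.

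Promoter sequences of the members were taken from RefSeq (GRCm38.p6, 250 bases before to 50 after a start, 33 windows for 27 of the 36 members) to show what called and uncalled members carry next to their starts. Capitals mark matches, on either strand, to 3 letter strings: GAGGAA, the core bound by PU.1 and other ETS factors, CACGTG, an E-box bound by factors that control lysosomal genes such as MITF and TFEB, and GAAA followed by 2 bases of any kind and GAAA again, an interferon response element. The first holds an E-box at the lysosomal gene Ctsd (chr7:142387778-142388077, minus strand), the next the ETS core at Grn (chr11:102430257-102430556, plus strand), then come the called activation genes Itgax (chr7:128129300-128129599, plus strand) and Lgals3 (chr14:47373610-47373909, plus strand), and the last is the homeostatic gene Siglech (chr7:55767934-55768233, plus strand), which was not called.
Ctsd: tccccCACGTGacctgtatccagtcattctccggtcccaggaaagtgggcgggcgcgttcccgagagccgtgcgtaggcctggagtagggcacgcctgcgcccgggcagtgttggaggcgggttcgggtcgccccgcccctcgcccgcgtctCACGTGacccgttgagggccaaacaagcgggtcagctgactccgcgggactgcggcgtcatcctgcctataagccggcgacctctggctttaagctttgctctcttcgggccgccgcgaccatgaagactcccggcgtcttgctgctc
Grn: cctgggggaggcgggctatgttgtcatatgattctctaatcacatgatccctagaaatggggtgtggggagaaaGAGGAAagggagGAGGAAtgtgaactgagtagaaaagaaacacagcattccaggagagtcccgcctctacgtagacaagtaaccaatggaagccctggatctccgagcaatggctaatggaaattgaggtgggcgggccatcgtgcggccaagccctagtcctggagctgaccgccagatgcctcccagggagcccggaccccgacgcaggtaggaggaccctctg
Itgax: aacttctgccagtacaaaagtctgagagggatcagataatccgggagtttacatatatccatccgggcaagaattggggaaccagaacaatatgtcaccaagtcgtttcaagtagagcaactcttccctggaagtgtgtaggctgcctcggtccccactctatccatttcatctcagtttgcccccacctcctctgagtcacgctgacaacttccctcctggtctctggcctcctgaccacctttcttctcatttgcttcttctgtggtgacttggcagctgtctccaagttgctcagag
Lgals3: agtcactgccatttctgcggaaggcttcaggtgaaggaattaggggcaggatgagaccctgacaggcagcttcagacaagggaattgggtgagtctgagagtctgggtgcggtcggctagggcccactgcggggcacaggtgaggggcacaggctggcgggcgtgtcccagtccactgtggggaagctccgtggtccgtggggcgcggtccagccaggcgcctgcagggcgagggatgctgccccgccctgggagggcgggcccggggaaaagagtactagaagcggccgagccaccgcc
Siglech: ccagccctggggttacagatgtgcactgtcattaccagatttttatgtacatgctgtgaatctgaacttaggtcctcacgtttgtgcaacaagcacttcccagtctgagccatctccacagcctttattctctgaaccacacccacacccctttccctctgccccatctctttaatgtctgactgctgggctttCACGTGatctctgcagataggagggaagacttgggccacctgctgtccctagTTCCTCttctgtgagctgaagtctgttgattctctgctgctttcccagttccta
The Ctsd window holds CACGTG 2 times, the Grn window GAGGAA 2 times and the Siglech window each of these strings 1 time, whereas the Itgax and Lgals3 windows hold none of the 3 strings. GAGGAA was found in 15 of the 33 member windows (45.5%), some of which overlap, and in 28.3% of all 32851 windows. CACGTG was found in 3 member windows (9.09%), at Ctsd, P2ry12 and Siglech, and in 7.15% of all windows. The interferon response string was found in 3 member windows (9.09%), at Aif1, Ctss and Spp1, and in 3.44% of all windows. Of the 6 called members, Ptprc, Laptm5 and Grn carried GAGGAA in the window and Itgax, Lgals3 and Ctsd did not, so that no string was common to the called members. These matches are letters in a window and not bound sites.

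The homeostatic members had the lowest median difference of the 4 sublists. None of the 8 tested passed the edgeR test, with 6 at an unadjusted p under 0.05 (3 were called by DESeq2 and 0 by limma-voom), and their log2 fold changes lay between 0.12 and 0.40 with a median of 0.22. Csf1r, the receptor for the survival factors CSF1 and IL-34, stood at 107, 101 and 102 CPM in the Gas5 libraries and at 99.1, 87.6 and 97.8 CPM in the GFP libraries. The Gas5 libraries were all higher, but by 1.09-fold, with an adjusted p of 0.262. Cx3cr1, the fractalkine receptor, was at 39.2, 37.9 and 43.9 CPM against 36.8, 38.9 and 34.9 CPM. It was the only homeostatic member tested whose groups overlapped, at a log2 fold change of 0.13 (SE 0.0683, adjusted p = 0.324).

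Tmem119, a membrane protein that separates microglia from other macrophages, stood at 22.7, 19.7 and 19.0 CPM against 18.2, 15.4 and 18.9 CPM, so that Gas5 C and GFP C were nearly level. Siglech, a sialic acid binding receptor, was at 18.6, 18.5 and 20.6 CPM against 17.6, 15.2 and 16.8 CPM. Their adjusted p values were 0.218 and 0.136. The homeostatic members closest to the threshold were Fcrls, an Fc receptor-like protein of microglia, and Sall1, the transcription factor that maintains their identity. Fcrls stood at 15.1, 13.5 and 15.8 CPM against 11.0, 12.6 and 11.1 CPM (log2 fold change 0.35, SE 0.0858, adjusted p = 0.0512). Sall1 stood at 27.5, 24.1 and 27.4 CPM against 22.2, 19.2 and 22.3 CPM (0.31, SE 0.0800, adjusted p = 0.0606). Olfml3, a secreted glycoprotein, had the highest difference of this sublist at 0.40, with an adjusted p of 0.104, and Selplg, the P-selectin ligand, had 0.175 with an adjusted p of 0.173.

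The pan-myeloid members, which microglia share with other macrophages, were higher by a median of 0.55 on the log2 scale, and 2 of 9 tested rose. Ptprc, which encodes the leukocyte phosphatase CD45, had the lowest p of all 31 members. It stood at 28.9, 22.2 and 23.1 CPM in the Gas5 libraries and at 16.6, 13.5 and 15.8 CPM in the GFP libraries. The lowest Gas5 library was well above the highest GFP library, and the rise was 1.61-fold (log2 fold change 0.69, SE 0.115, adjusted p = 0.0163). Laptm5, a lysosomal membrane protein of blood cells and microglia, rose 1.30-fold from 26.2, 23.4 and 28.5 CPM to 36.7, 30.8 and 33.6 CPM (adjusted p = 0.0447).

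Tyrobp and Trem2, the adaptor and receptor of the lipid-sensing pathway, had log2 fold changes of 0.59 and 0.45 and did not pass, with adjusted p of 0.0533 and 0.188. Tyrobp was at 6.84, 5.68 and 4.70 CPM against 3.71, 3.89 and 3.90 CPM, with a wide spread among the Gas5 libraries and nearly equal GFP libraries. Spi1, which encodes PU.1, was at 7.33, 7.39 and 6.99 CPM against 5.83, 4.98 and 5.95 CPM. The Gas5 libraries lay close together (SD 0.212) and above the GFP range, with a log2 fold change of 0.37 (SE 0.0976, adjusted p = 0.0644). Aif1, the microglial marker IBA1, had 0.55 (adjusted p = 0.0675), Cd52, a small surface glycoprotein, 0.57 (0.138) and Cd53, a tetraspanin, 0.31 (0.262). Lyz2, the lysozyme of macrophages, was at 8.42, 3.93 and 5.55 CPM against 4.28, 4.28 and 3.65 CPM, so that Gas5 B lay within the GFP range and the difference of 0.55 did not pass (SE 0.246, adjusted p = 0.245).

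All 6 lysosomal members were higher in every Gas5 library than in any GFP library, and 2 rose. Grn, which encodes progranulin, a lysosomal and secreted protein of microglia and neurons, stood at 73.7, 61.6 and 61.4 CPM against 50.9, 48.7 and 50.9 CPM. The GFP libraries were nearly equal and all Gas5 libraries were above them, a rise of 1.31-fold (log2 fold change 0.39, SE 0.0736, adjusted p = 0.0242). Ctsd, the aspartic protease cathepsin D, rose 1.27-fold, from 29.8, 29.1 and 25.1 CPM to 37.7, 33.4 and 35.4 CPM (SE 0.0761 on the log2 scale, adjusted p = 0.0411). Only 36.3% of its exonic bases (GENCODE M21) are free of overlap with Gm49369 and were counted.

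Cd68, a glycoprotein of macrophage lysosomes, just missed the threshold, at 6.47, 5.70 and 5.63 CPM against 4.68, 4.31 and 3.90 CPM (log2 fold change 0.46, SE 0.111, adjusted p = 0.0511). Ctss, the cathepsin most restricted to microglia in brain, was at 83.2, 70.3 and 65.8 CPM against 62.5, 48.3 and 56.9 CPM, with an adjusted p of 0.0822. Ctsb and Ctsz, cathepsins also made by other cells, had log2 fold changes of 0.14 and 0.26 with adjusted p of 0.208 and 0.109.

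The activation members ranged most widely, with log2 fold changes from 0.09 to 2.60 and a median of 0.57, and 2 of 8 tested rose. Itgax, which encodes the integrin CD11c of dendritic cells and activated microglia, stood at 2.69, 2.50 and 2.14 CPM in the Gas5 libraries and at 1.08, 0.804 and 1.35 CPM in the GFP libraries. It was higher in all 3 Gas5 libraries, which lay close together. The rise was 2.28-fold (log2 fold change 1.19, SE 0.209, adjusted p = 0.0188), on 83 to 116 counts against 31 to 60. Lgals3, the secreted lectin galectin 3, stood at 6.29, 1.5 and 1.96 CPM against 0.486, 0.648 and 0.472 CPM. All Gas5 libraries were above the GFP range, and Gas5 A was 3.64 times the mean of Gas5 B and C. The rise was 6.08-fold (log2 fold change 2.60, SE 0.574, adjusted p = 0.0398), on 64 to 271 counts against 15 to 27. Without Gas5 A its log2 fold change was 1.68 and it was still called (adjusted p = 0.0132). The call was lost with limma-voom (adjusted p = 0.103) and when GFP A (0.101), GFP B (0.136) or GFP C (0.153) was left out.

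Gpnmb, a transmembrane glycoprotein of lipid-laden macrophages, was at 7.70, 2.27 and 3.12 CPM against 1.69, 1.35 and 2.17 CPM. The groups did not overlap, but Gas5 B and GFP C were nearly level and Gas5 A was 2.86 times the mean of Gas5 B and C, so that the log2 fold change of 1.34 (SE 0.436) had an adjusted p of 0.118 and was 0.64 without Gas5 A. Clec7a, the fungal glucan receptor Dectin-1, was at 1.02, 1.05 and 0.826 CPM against 0.612, 0.571 and 0.472 CPM. Its log2 fold change of 0.79 did not pass (SE 0.226, adjusted p = 0.0853), at 32 to 45 counts in the Gas5 libraries and 15 to 34 in the GFP libraries. Cd9, a tetraspanin, had 0.35 (adjusted p = 0.0638).

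The other 3 activation members overlapped between the groups. Cst7, the cathepsin inhibitor cystatin F and a defining gene of activated microglia, stood at 3.78, 2.41 and 2.40 CPM against 2.47, 2.02 and 2.49 CPM. Only Gas5 A lay above the GFP range, and the log2 fold change of 0.30 (SE 0.206, adjusted p = 0.447) was 0.04 without that library. Spp1, which encodes osteopontin, was at 1.97, 0.935 and 1.29 CPM against 1.24, 1.14 and 1.10 CPM, with Gas5 B the lowest of all 6 libraries. Its adjusted p was 0.626. Lpl, the lipoprotein lipase, had a log2 fold change of 0.093 (SE 0.0775, adjusted p = 0.535).

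**Figure D2:**
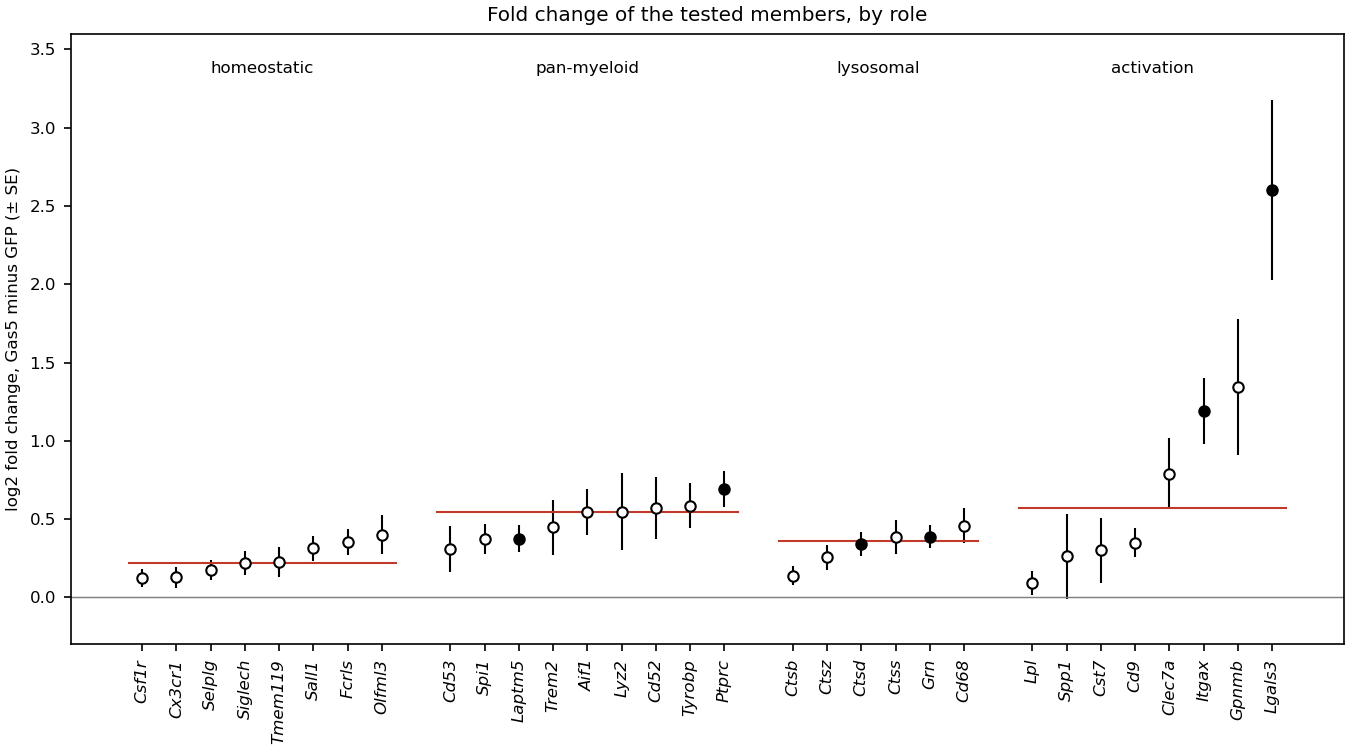
Log2 fold change, Gas5 minus GFP, with its standard error (y axis) for the 31 tested members, ordered within each sublist; filled points have an edgeR adjusted p under 0.05 and red lines are sublist medians. The medians are 0.22 for homeostatic, 0.55 for pan-myeloid, 0.36 for lysosomal and 0.57 for activation members, and only the activation sublist holds values above 1.

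Homeostatic and activation genes were then compared within each library. The mean log2 (CPM + 0.5) of the 8 tested homeostatic members was 4.83, 4.72 and 4.80 in the Gas5 libraries, against 4.58, 4.46 and 4.60 with GFP. That of the 8 activation members was 2.61, 2.01 and 2.07 against 1.64, 1.58 and 1.68. Neither sublist overlapped between the groups, and the activation mean minus the homeostatic mean was -2.22, -2.70 and -2.73 in the Gas5 libraries, against -2.93, -2.88 and -2.92 with GFP. The difference was therefore smaller in size in all 3 Gas5 libraries, most of all in Gas5 A. Between the sublists' median log2 fold changes the gap was 0.35, and it was 0.25 without Gas5 A. With the filter of 1 CPM in 3 libraries, which removes Clec7a, the gap was 0.13. These values are descriptions without a test.

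**Figure D3:**
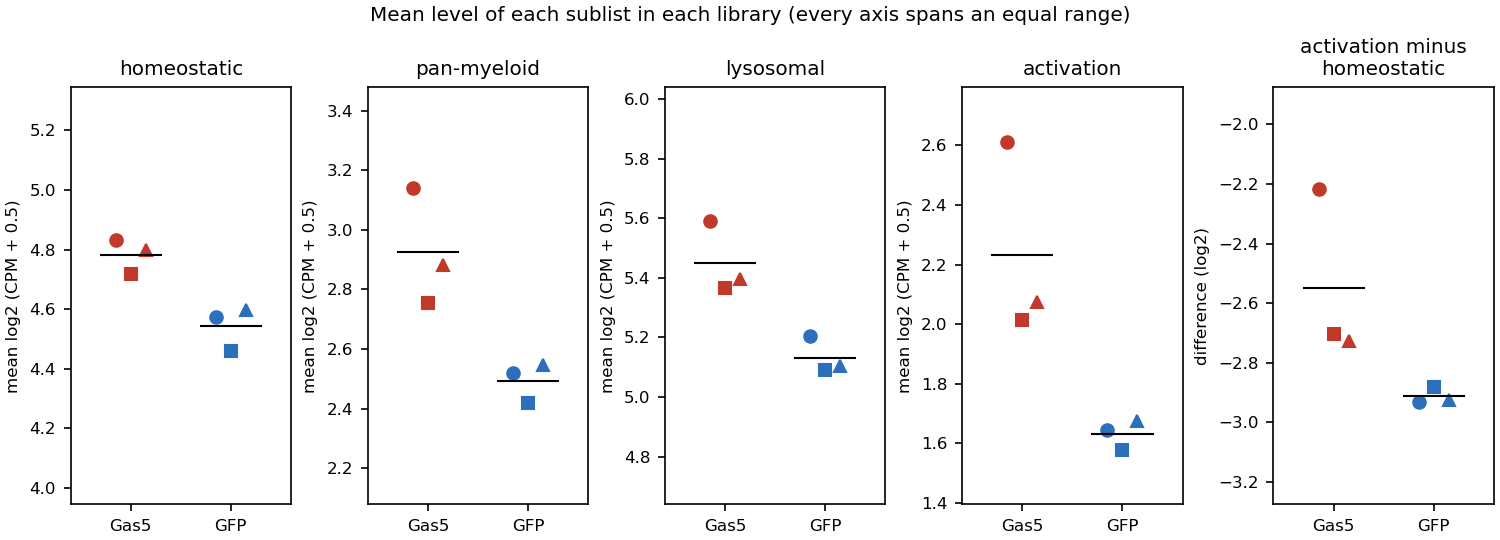
Mean log2 (CPM + 0.5) of the tested members of each sublist in each library, and in the last panel the activation mean minus the homeostatic mean; symbols are libraries (circle A, square B, triangle C), lines are group means and each axis spans an equal range. Gas5 libraries lie above GFP libraries in every panel, and Gas5 A stands highest.

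Gene by gene, the ratio to the homeostatic mean of the same library separated few activation members. The log2 ratio of Itgax was -3.16, -3.13 and -3.40 in the Gas5 libraries, against -3.92, -4.08 and -3.71 with GFP, a mean difference of 0.67. That of Lgals3 was -2.07, -3.72 and -3.50 against -4.60, -4.26 and -4.64, a difference of 1.40, or 0.89 without Gas5 A. In these 2 of 8 activation members the lowest Gas5 library exceeded the highest GFP library, and the other 6 overlapped, with differences of 0.74 for Gpnmb, 0.24 for Clec7a, 0.095 for Cd9, -0.007 for Cst7, -0.081 for Spp1 and -0.15 for Lpl. Among the pan-myeloid members the ratio did not overlap for Ptprc (difference 0.43), Aif1 (0.23) and Spi1 (0.11), and among the lysosomal ones for Cd68 (0.19). The median difference was 0.206 for the pan-myeloid members (9 of 9 positive), 0.167 for the activation members (5 of 8) and 0.122 for the lysosomal members (5 of 6). A higher ratio was thus not particular to the activation members. In all, 6 of 23 members outside the homeostatic sublist lay above in every Gas5 library, as did 1.33% of all 17555 tested genes other than the homeostatic members. The homeostatic mean was itself 0.238 higher in the Gas5 libraries, so a gene of unchanged level has a lower ratio there. The share of 1.33% is therefore low by construction (13.8% of all tested genes lay above in CPM) and is no neutral background for the members. The pseudocount of 0.5 CPM makes such differences smaller for genes as low as Itgax, Lgals3 and Clec7a.

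The libraries of a group differed among themselves. Gas5 A was the highest library for 24 of the 31 tested members and GFP B the lowest for 19. The ratio of Gas5 A to the mean of Gas5 B and C had a median of 1.17 over the members and of 1.0 over all tested genes. It passed 1.5 for 5 members: Lgals3 (3.64), Gpnmb (2.86), Lyz2 (1.78), Spp1 (1.77) and Cst7 (1.57). For the homeostatic members it lay between 0.951 (Siglech) and 1.17 (Tmem119).

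Of 8 monocyte markers 6 also had their highest value in Gas5 A, while Chil3 and Hp peaked in Gas5 B. Ly6c2, an antigen of inflammatory monocytes, was at 4.64, 0.818 and 1.42 CPM in the Gas5 libraries and at 0.468, 0.156 and 0.535 CPM in the GFP libraries (log2 fold change 2.56, adjusted p = 0.0722). Itgal, an integrin of leukocytes, was at 2.76, 2.17 and 1.94 CPM against 1.22, 1.30 and 1.67 CPM (adjusted p = 0.0732). Of the 8 markers 7 were tested, 0 passed the edgeR test and 4 had an unadjusted p under 0.05. All 7 had positive log2 fold changes, from 0.255 to 2.56, with a median of 0.73, beside 0.57 for the activation members. DESeq2 called 1 and limma-voom 0. By edgeR 2 were called without the expression filter, with the replicate letter as a block, without Gas5 B or at a threshold of 0.10. None of the 8 markers was at 0 in all libraries. Their summed level was 46.6 to 70.1 CPM in the Gas5 libraries, highest in Gas5 A, and 40.4 to 47.7 CPM in the GFP libraries, most of it from Fn1, which other cells also express. The part of monocyte-derived cells in the higher Lgals3, Gpnmb, Lyz2 and Ptprc was not tested.

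**Figure D4:**
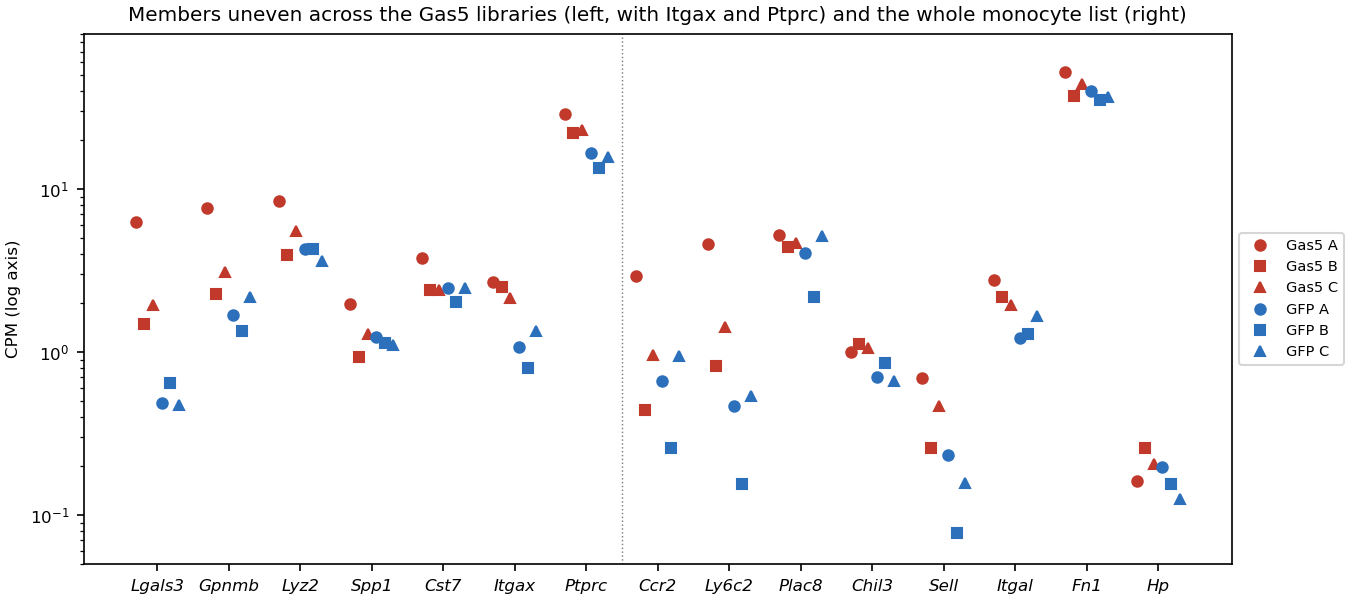
CPM on a log axis in each library for the 5 members in which Gas5 A stood furthest above Gas5 B and C, with Itgax and Ptprc beside them (left), and for all 8 genes of the monocyte list (right; symbols as in the plot of members by library). Gas5 A is the highest library for the 7 members shown and for 6 of 8 monocyte genes, while for Itgax the Gas5 libraries lie together at 2.14 to 2.69 CPM.

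Markers of other immune cells were not called by edgeR with the settings reported. Of 10 border macrophage markers 6 were tested and 0 passed, with 1 at an unadjusted p under 0.05. DESeq2 called 1 and limma-voom 0. By edgeR 1 was called without the expression filter, with the replicate letter as a block or without Gas5 B. The 10 border macrophage markers summed to 34.9 to 46.6 CPM against 28.2 to 38.6 CPM. Of the 6 tested, 3 had positive log2 fold changes, and the list's median was -0.109. Mrc1 had a log2 fold change of -0.39 (adjusted p = 0.268) and Ms4a7 of 1.59 (0.141). Cd163, a scavenger receptor, was at 21.8, 17.7 and 26.6 CPM against 20.5, 17.6 and 11.9 CPM, with a log2 fold change of 0.39 (adjusted p = 0.308). Stab1 had a log2 fold change of 0.079, F13a1 of -0.297 and Lyve1 of -0.402. Neutrophil markers summed to 1.18 to 1.8 CPM against 1.35 to 1.37 CPM, with Ly6g at 0 in all libraries, and 0 of 2 tested passed (0 at an unadjusted p under 0.05). Lymphocyte markers summed to 12.3 to 20.2 CPM against 16.6 to 19.1 CPM, mostly from Cd4, and 0 of 2 tested passed (0 at an unadjusted p under 0.05). DESeq2 and limma-voom called 0 of either list. Ms4a1 was at 0 but lies wholly within another listed gene.

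Other genes of the microglial programme moved with the members in part. Of 14 tested genes of TREM2 and Fc receptor signalling, all 14 had positive log2 fold changes, 3 rose and 13 had an unadjusted p under 0.05, with a median of 0.38. Fgr, a Src-family kinase of myeloid cells, stood at 1.44, 0.888 and 1.06 CPM against 0.378, 0.441 and 0.409 CPM and rose 2.76-fold (log2 fold change 1.47, SE 0.265, adjusted p = 0.0210). Fcgr2b, the inhibitory Fc receptor, rose 1.49-fold (adjusted p = 0.0327) and the exchange factor Vav1 1.32-fold (0.0331). Without Gas5 A 1 of the 14 was called, and 0 without GFP B or GFP C.

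Of 18 other microglia-enriched genes, 2 rose: Bin2, a membrane-bending protein of leukocytes (1.39-fold, adjusted p = 0.0398), and Apbb1ip, an integrin activator (log2 fold change 0.26, adjusted p = 0.0472). The list's median log2 fold change was 0.195, and 15 of the 18 were positive. Neither Bin2 nor Apbb1ip was called without Gas5 A, without Gas5 B, without GFP B or without GFP C.

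In the CSF1R ligand and TGF-beta list, which holds the signals that sustain microglia, 1 of 7 tested genes rose, Tgfbr2, at 37.3, 35.5 and 37.4 CPM against 32.1, 32.1 and 30.8 CPM (adjusted p = 0.0398). The list's median was 0.15, and Csf1 and Il34, the ligands of CSF1R, had log2 fold changes of 0.144 and 0.007 with adjusted p of 0.441 and 0.961. The Tgfbr2 call was lost without any 1 of the libraries other than Gas5 B, and DESeq2 called 0 of the list. Of 11 tested myeloid transcription factor genes 0 rose, with 3 higher at an unadjusted p under 0.05 and 0 called higher by DESeq2 or limma-voom, and 1 fell, Mitf, at 83.5, 82.7 and 92.0 CPM against 96.6, 109 and 113 CPM (log2 fold change -0.30, adjusted p = 0.0443). The list's median was 0.17. The Mitf call was lost under upper quartile scaling, without Gas5 A, without Gas5 B, without GFP B and without GFP C.

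Of 25 other genes linked to microglial activation 17 were tested, 4 were at 0 and 4 were below the filter. Of those at 0, Ccl6, Hif1a and Lilrb4a lie wholly within other listed genes and were not measurable here, whereas Atp6v0d2 overlaps no listed gene. Among the tested, 3 rose and 1 fell, with a median of 0.34. Tlr2, a receptor for microbial lipopeptides, rose by 1.28 on the log2 scale, from 1.49, 1.66 and 1.01 CPM to 3.99, 3.44 and 2.79 CPM (adjusted p = 0.0160), and Cybb, the catalytic subunit of the phagocyte oxidase, rose 2.11-fold (adjusted p = 0.0318). Axl, a receptor for dying cells, rose 1.36-fold (adjusted p = 0.0357). Igf1, a growth factor also made by neurons, fell from 4.98, 6.15 and 6.71 CPM to 2.30, 2.88 and 3.46 CPM (adjusted p = 0.0163). Without Gas5 A 2 of the list were higher and 1 lower, and 0 were called without GFP B or GFP C.

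The astrocyte list had 1 of 9 tested genes higher (Aqp4, adjusted p = 0.0486), the oligodendrocyte list 1 of 10 lower (Aspa, 0.0467) and the endothelial list 1 of 10 lower (Flt1, 0.0300). Their median log2 fold changes were 0.17, -0.24 and 0.003. All 10 oligodendrocyte genes had negative values, 7 of them at an unadjusted p under 0.05. Of the 9 tested astrocyte genes 6 had positive values, 4 of them at an unadjusted p under 0.05. In the endothelial list 2 genes were lower and 0 higher at that level. Gfap, of the astrocyte list, was at 0 and untested, but lies wholly within another listed gene. The Aqp4 and Aspa calls were lost with limma-voom, and the Aspa call with upper quartile scaling. Without Gas5 A, GFP B or GFP C 0 genes of these 3 lists were called, and the Aqp4 call was also lost without Gas5 C, the Aspa call without Gas5 B or Gas5 C and the Flt1 call without Gas5 B or GFP A. The part of these lists' differences in the values of the members was not tested.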

How the data were processed

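Total RNA from 3 Gas5 and 3 GFP libraries was sequenced after ribosomal RNA depletion, per the labels' protocols. Per the file headers and values, the deposited tables hold read counts for each gene, as whole numbers and not normalized. STAR 2.7.0 and featureCounts 1.5.0-p3 on GRCm38.p6 are named in the submitters' processing notes. For annotation, strand setting and overlaps, the settings were not given in the sources used here. Overlaps were computed from the deposited coordinates and exons from GENCODE M21.

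Counts of 54658 genes, from 32359052 to 56081575 per library, were filtered with filterByExpr (17563 genes left), scaled by TMM and tested by edgeR 4.0.16 (quasi-likelihood F, R 4.3.3), Gas5 minus GFP in all 6 libraries, 2-sided, with Benjamini-Hochberg adjustment over all genes and a threshold of 0.05. Standard errors are the absolute log2 fold change over the square root of F. Logarithms of CPM use a pseudocount of 0.5. Replicates are listed as separate samples; nothing says they are separate animals, so the p-values reflect only how these samples vary, which may be technical. Within each group, libraries differed beyond counting noise (chi-square per degree of freedom 5.13 to 25.2).

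The members and lists were chosen with earlier results of these data known. Named genes are the members, Gas5 and the 2 tested genes of smallest p in each other list; any further list gene was picked with its values in view, and some list genes are not reported here. Alternatives were RLE and upper quartile scaling, no filter, 1 CPM in 3 libraries, DESeq2 1.42.0, limma-voom 3.58.1, a replicate block, a threshold of 0.10 and leaving out each library. The fit was tested on simulated data with an equal spread set for every gene and no uneven library. That test does not show how the fit handles libraries as uneven as these.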

Additional observations from a re-analysis of the deposited data

How the results depend on the processing

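Counts called over all genes were 955 with the settings reported, 1658 without the expression filter, 1491 with DESeq2 and 1747 at a threshold of 0.10, and 107 to 847 when a library was left out (107 without GFP C, 115 without GFP B, 612 without Gas5 A). Members called numbered 6, and 10 under upper quartile scaling, 17 without the filter, 14 with DESeq2, 15 at a threshold of 0.10 and 0 to 12 when a library was left out. Homeostatic members called numbered 0, and 2 under upper quartile scaling, 3 without the filter, 1 with the filter of 1 CPM, 3 with DESeq2, 2 at a threshold of 0.10 and 0 to 2 when a library was left out. Activation members called numbered 2, and 4 without the filter, 1 with limma-voom, 4 at a threshold of 0.10 and 0 to 4 when a library was left out. RLE scaling changed none of these 4 counts by over 1.5 times. The activation minus homeostatic gap of 0.35 was 0.13 with the filter of 1 CPM, which tests 7 of the 8 activation members, and 0.25 to 0.42 when a library was left out. Gas5 had log2 fold changes of 0.33 to 0.42 with a library left out. Of single members, Spp1 alone reversed, at -0.081 without Gas5 A, in a range of -0.081 to 0.487 with a library left out. The cause of the lost calls was not tested.

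With the replicate letter as a replicate block edgeR called 1438 genes, 9 members (Sall1, Ctss and Cd68 added), 1 homeostatic member and 2 activation members. It is not stated if a letter pairs samples. Same-lettered deviations from the group means correlated across genes at 0.164 for A, 0.179 for B and -0.0936 for C. Gas5 A and Gas5 B each correlated best with the GFP library of their own letter, whereas Gas5 C correlated best with GFP A (0.0563). Scaling moved the median log2 fold change of all genes from 0.016 to at most 0.04. Itgax, Lgals3 and Clec7a rest on 15 to 60 counts per GFP library, and Spp1 on 35 to 69.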
